A study of Homo sapiens with 4 samples.

Results

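Transcripts that the Ensembl annotation classes as targets of nonsense-mediated decay (NMD) were examined in RNA co-precipitated with beta-catenin from HT-29 and CaCo-2 cells, 2 lines of human colon adenocarcinoma. They were the rows of the deposited RIP-against-input tables whose transcript class is nonsense_mediated_decay. The class made up 1345 of the 19895 distinct transcripts listed in either line, from 1166 gene names. HT-29 contributed 699 of 9880 listed transcripts (7.07%) and CaCo-2 774 of 11943 (6.48%). The 4 libraries were a beta-catenin RIP and an antibody-free input of untreated HT-29, and a beta-catenin RIP and an antibody-free input of untreated CaCo-2, with 1 library per group. In RNA immunoprecipitation (RIP), an antibody pulls a protein out of a lysate, here of isolated nuclei, and its attached RNA is sequenced. The series set out to find long non-coding RNAs bound to beta-catenin. Both are established lines grown from colon tumours and are known to carry truncated APC, which leaves beta-catenin active.

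NMD is a quality-control pathway in which a ribosome that stops well upstream of an exon-exon junction recruits UPF1 and its partners, and the mRNA is degraded. The junction is marked by the exon junction complex, a set of proteins that splicing leaves on the mRNA. Many genes of splicing factors make such transcripts by including or skipping an exon, which limits their own expression. The class is a prediction from the position of the stop codon, and decay itself was not measured here. Beta-catenin is the co-activator of Wnt signalling in the nucleus, where it binds TCF/LEF factors on DNA, and a partner of cadherin and alpha-catenin at cell junctions.

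Levels are in FPKM, fragments scaled by transcript length and library size, as computed by the authors. The tables list only transcripts at least 1.5-fold higher in the RIP than in input, so every ratio below is above 1 by selection, and a transcript that is not listed was not analysed here. The lowest RIP level of any listed transcript, of all classes, was 1.31 FPKM in HT-29 and 0.842 FPKM in CaCo-2. The tables of the lines thus begin at different RIP levels. Reads of overlapping transcripts of a gene were divided among them by the authors' software, so an input listed at 0 does not show that the gene was absent from the input. With 1 library per group there was no replicate error, and no fold was tested here. Few markers of other cell types were listed: 0 of 5 fibroblast and 0 of 3 endothelial markers in either line, and 1 of 5 immune markers in CaCo-2 (CD68, 1.47 FPKM in the RIP and 0.954 in input). Of 10 colon epithelial markers, 6 were listed in HT-29, with a summed level of 183 FPKM in the RIP and 74.5 in input. In CaCo-2, 4 were listed, with 81.9 FPKM in the RIP and 35.6 in input.

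The promoters of the 3 genes whose NMD transcripts had the highest lower ratio of both lines are shown because beta-catenin reaches DNA through TCF/LEF factors, whose core motif is CTTTG. They are the 250 bases before the gene start in RefSeq, build GRCh38.p14, written 5′ to 3′ on the strand of the gene. NDUFA13 (chr19:19515975-19516224, plus strand) and NDUFS7 (chr19:1383657-1383906, plus strand) encode subunits of respiratory complex I, and TMCO1 (chr1:165768923-165769172, minus strand) a calcium channel of the endoplasmic reticulum. Capitals mark CTTTG or its reverse complement CAAAG; the windows were not matched to the starts of the NMD transcripts, which the tables give on hg19.
NDUFA13: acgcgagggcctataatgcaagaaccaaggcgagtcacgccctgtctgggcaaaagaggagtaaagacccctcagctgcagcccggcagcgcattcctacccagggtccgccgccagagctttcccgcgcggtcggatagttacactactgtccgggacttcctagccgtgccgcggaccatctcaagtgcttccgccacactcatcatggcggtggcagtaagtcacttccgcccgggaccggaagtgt
TMCO1: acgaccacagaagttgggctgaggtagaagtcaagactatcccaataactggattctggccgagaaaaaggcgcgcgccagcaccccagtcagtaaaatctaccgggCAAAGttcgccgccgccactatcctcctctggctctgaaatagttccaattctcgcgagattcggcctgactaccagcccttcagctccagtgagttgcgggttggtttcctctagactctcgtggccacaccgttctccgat
NDUFS7: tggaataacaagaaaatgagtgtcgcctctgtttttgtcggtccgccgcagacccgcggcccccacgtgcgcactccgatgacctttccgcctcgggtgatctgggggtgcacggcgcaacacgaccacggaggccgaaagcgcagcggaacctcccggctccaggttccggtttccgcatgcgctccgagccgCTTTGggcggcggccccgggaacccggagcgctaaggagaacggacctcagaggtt
NDUFA13 held no such motif, and TMCO1 and NDUFS7 held 1 each, 143 and 56 bases before the gene start. The motif was present in 32.1% of the matched promoters of NMD genes of HT-29 (171 of 532), and for CaCo-2 the share was 32.7% (192 of 588). Genes of listed protein-coding transcripts had it in 33.3% and 33.1%, and all 27303 promoters of the table in 42.2%. Among the genes of the 27 NMD transcripts at 2-fold or more in both lines, 12 of 25 matched promoters held it (48.0%). The median GC content of the windows was 65.2% and 64.8% for NMD genes of HT-29 and CaCo-2, against 58.0% for all promoters, and the median number of CpG sites was 22 in both lines against 11. Genes of listed protein-coding transcripts were close to the NMD genes, with medians of 64.8% GC and 21 CpG sites in both lines. A match is a description of these letters and not a binding site.

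In HT-29, the RIP level of NMD transcripts ranged between 1.31 and 279 FPKM with a median of 2.27, against a median of 0.464 FPKM in input. Most were rare: 38 of 699 reached 10 FPKM in the RIP and 9 reached 50. The 10 highest held 33.7% of the summed RIP level of the class, and 7 of these 10 came from genes of cytosolic ribosomal proteins. In CaCo-2, the RIP level lay between 0.845 and 48.6 FPKM with a median of 1.43, and the input median was 0.359 FPKM. There 10 of 774 reached 10 FPKM, and the 10 highest held 12.9% of the sum.

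**Figure D1:**
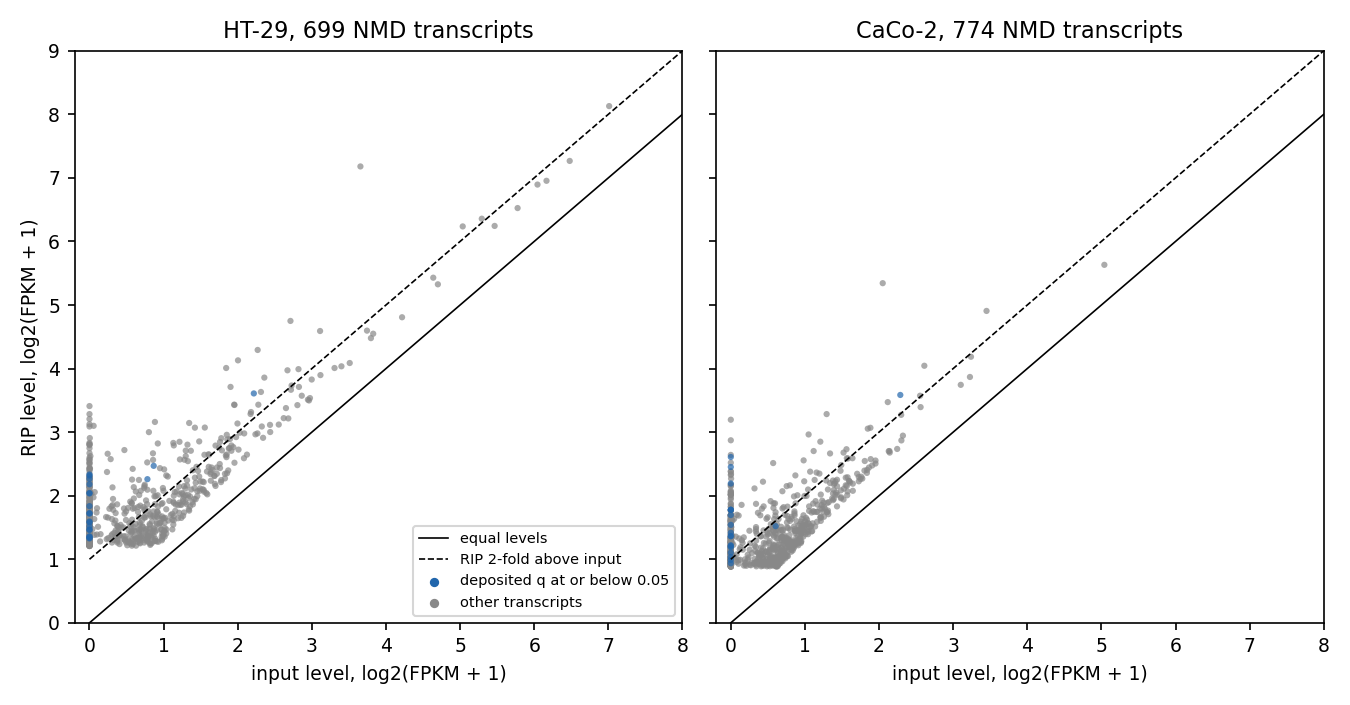
RIP level against input level of every listed NMD transcript in HT-29 (left) and CaCo-2 (right), both as log2(FPKM + 1). The solid line marks equal levels and the dashed line a RIP 2-fold above input; blue points have q at or below 0.05 in the authors' deposited table, and the column at the left edge holds the 254 (HT-29) and 274 (CaCo-2) transcripts listed at 0 in input.

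RIP and input were compared by a log2 ratio, log2 of (RIP FPKM + 1) over (input FPKM + 1), kept where 1 library of the line or both reached 1 FPKM. The added 1 FPKM lowers the ratio of rare transcripts. All 699 NMD transcripts of HT-29 and 626 of the 774 of CaCo-2 passed this filter. Every transcript listed in HT-29 passes it, because the lowest RIP level there was 1.31 FPKM. In HT-29, 421 of 699 reached 2-fold on this scale (60.2%), against 56.0% of all listed transcripts. In CaCo-2, 296 of 626 did (47.3%), against 40.8% of all listed. The median log2 ratio of NMD transcripts was 1.23 in HT-29 and 0.94 in CaCo-2, beside 1.14 and 0.82 over all listed transcripts.

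A transcript at 0 in input reaches 2-fold by construction once it passes the filter. In HT-29, input was 0 for 36.3% of NMD, 27.4% of protein-coding and 30.1% of retained-intron transcripts. The CaCo-2 shares were 32.1%, 24.5% and 21.6% for the same classes. Processed transcripts had input at 0 for 39.8% in HT-29, above the NMD share, and for 31.4% in CaCo-2, near it. Among transcripts with input above 0, 167 of 445 NMD transcripts were at 2-fold in HT-29 (37.5%), against 35.5% of protein-coding ones. In CaCo-2 the same count was 95 of 425 (22.4%), against 23.2% of protein-coding ones. The difference in share between NMD and protein-coding transcripts in HT-29 was thus 7.04 percentage points with all transcripts and 2.05 with input above 0. For CaCo-2 it was 5.29 and -0.87 points. Among processed transcripts, a class without an open reading frame, 63.3% reached 2-fold in HT-29, and in CaCo-2 45.1% did. Of retained-intron transcripts, 52.0% and 32.0% did.

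**Figure D2:**
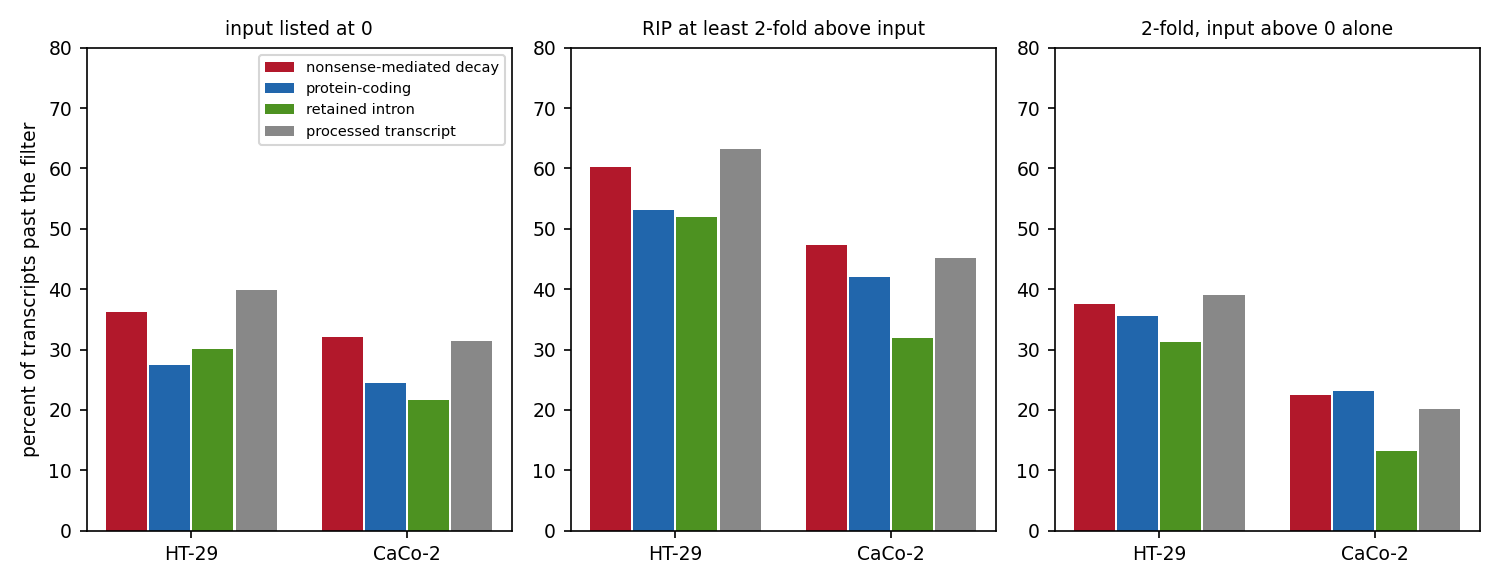
Percent of transcripts with input listed at 0 (left), percent whose RIP level was 2-fold or more over input (middle) and the 2-fold share among transcripts with input above 0 (right), by transcript class and line. NMD transcripts stand at 60.2% and 47.3% in the middle panel and at 37.5% and 22.4% in the right one, beside protein-coding transcripts at 35.5% and 23.2%.

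Shares were also compared at like RIP levels. In HT-29, between 2 and 4 FPKM in the RIP, input was 0 for 100 of 267 NMD transcripts (37.5%) and for 27.3% of protein-coding ones. Between 4 and 10 FPKM it was 0 for 19.3% of NMD and 15.4% of protein-coding transcripts, and from 10 FPKM for 0 of 38 NMD transcripts and 7.64% of protein-coding ones. In CaCo-2, the shares between 2 and 4 FPKM were 26.6% for NMD and 18.3% for protein-coding transcripts, and between 4 and 10 FPKM 19.1% (9 of 47) and 8.62%. The order of NMD and protein-coding transcripts thus held in the bins below 10 FPKM in both lines and not above it. Retained-intron transcripts of HT-29 had input at 0 for 28.3% between 2 and 4 FPKM and for 23.1% between 4 and 10 FPKM. The second share was above that of NMD transcripts. In CaCo-2 their shares were 17.4% and 7.41%, both below those of NMD transcripts. The genomic span of NMD transcripts, with a median of 17659 nt in HT-29 and 18632 nt in CaCo-2, was close to that of protein-coding ones (17854 and 19447 nt), while retained-intron transcripts spanned 3246 and 3202 nt.

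The most abundant NMD transcript in both RIP libraries came from RPS3, a protein of the small ribosomal subunit. In HT-29, ENST00000530721 (hg19 chr11:75110563-75116736, plus strand) had 279 FPKM in the RIP and 128 in input. A second RPS3 transcript, ENST00000528439, had 81.0 FPKM in the RIP and 38.2 in input of HT-29, and 48.6 in the RIP and 31.9 in input of CaCo-2. These are folds of 2.12 and 1.52. A further one, ENST00000525690, was listed in CaCo-2 with 29.0 FPKM in the RIP and 9.93 in input. The highest listed protein-coding RPS3 transcript had 166 FPKM in the RIP and 69.1 in input of HT-29. In CaCo-2 the highest listed was another protein-coding transcript, with 8.52 FPKM in the RIP and 3.56 in input.

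Other ribosomal protein transcripts followed in HT-29, at folds between 1.69 and 2.34. RPL13, RPL35A and RPL37A, all of the large subunit, had RIP levels of 123, 118 and 74.8 FPKM and input levels of 70.8, 65.0 and 43.2 FPKM. RPLP0, the base of the ribosomal stalk, had 91.1 FPKM in the RIP and 53.8 in input. RPL21 had 74.4 FPKM in the RIP and 31.8 in input. In all, 16 NMD transcripts of 12 ribosomal protein genes were listed in HT-29, with a median log2 ratio of 0.96. Of these, 8 were at 2-fold, 3 of them with input at 0. CaCo-2 listed 5, of which 4 passed the filter and 2 were at 2-fold, among them RPL27 with 7.31 FPKM in the RIP and 2.60 in input. Over all classes, 95 of 176 ribosomal protein transcripts of HT-29 and 40 of 96 of CaCo-2 were at 2-fold. Several of these genes have near-identical processed pseudogenes, with which reads can be shared: 1 RPLP0 pseudogene was listed in HT-29 at 20.0 FPKM in the RIP, and 2 RPL13 pseudogenes at up to 15.6. Their part in these values was not tested.

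Outside the ribosome, the highest levels in HT-29 belonged to B2M, the light chain of MHC class I, with 153 FPKM in the RIP and 88.2 in input. FTH1, the heavy chain of the iron store ferritin, had 144 FPKM in the RIP and 11.6 in input. PFDN4, a subunit of the prefoldin chaperone, had 42.1 FPKM in the RIP and 23.9 in input. In CaCo-2, PPIA, the prolyl isomerase cyclophilin A, had 39.6 FPKM in the RIP and 3.14 in input. PKM, the glycolytic enzyme pyruvate kinase, had 15.5 FPKM in the RIP and 5.11 in input, and TMEM66, the calcium-entry regulator now named SARAF, 11 and 3.88. RBM39, a splicing factor, was at 13.6 FPKM in the RIP and 8.36 in input. QARS and TARS, which charge glutamine and threonine tRNAs, had RIP levels of 12.4 and 10.9 FPKM and input levels of 7.59 and 4.87 FPKM. Of the 10 highest, 4 were at 2-fold in HT-29 and 6 in CaCo-2.

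**Figure D3:**
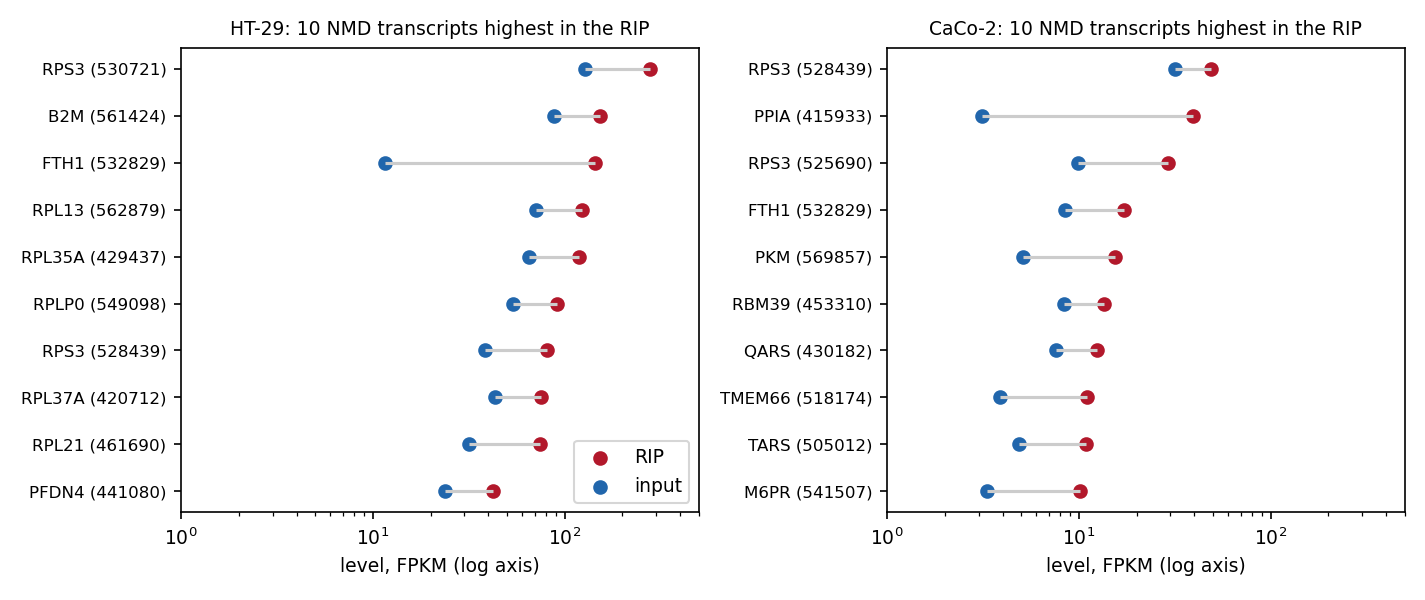
RIP level (red) and input level (blue) of the 10 NMD transcripts with the highest RIP level in HT-29 (left) and CaCo-2 (right), on a log axis in FPKM; the number beside a gene is the end of its Ensembl transcript identifier. FTH1 in HT-29 (144 against 11.6) and PPIA in CaCo-2 (39.6 against 3.14) have the widest gaps.

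FTH1 and PPIA also led the log2 ratios where RIP and input each reached 1 FPKM, a filter that leaves out every input at 0. FTH1 ENST00000532829 (hg19 chr11:61732038-61735103, minus strand) was 12.5-fold higher in the RIP in HT-29 and 2.03-fold higher in CaCo-2, where it had 17.2 FPKM in the RIP and 8.45 in input. PPIA ENST00000415933 (hg19 chr7:44836281-44841223, plus strand) was 12.6-fold higher in the RIP in CaCo-2. The authors' deposited table gives q of 0.926 for FTH1 in HT-29 and 0.657 for PPIA, so neither difference passed their test. PPIA has many processed pseudogenes, of which 2 were listed in CaCo-2, the higher at 7.89 FPKM in the RIP.

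After FTH1 in HT-29 came HINT1, a nucleotide hydrolase, with 15.1 FPKM in the RIP and 2.59 in input. A second RPL21 transcript had 16.5 and 3.01 FPKM, and RPS15A, of the small subunit, 25.9 and 5.55. CAPZA2, which caps actin filaments, had 18.6 FPKM in the RIP and 3.82 in input. PDCD5, linked to apoptosis, PIGN, of GPI-anchor synthesis, FYTTD1, an mRNA export adaptor, ARHGEF2 and HNRNPL, a splicing regulator, completed the first 10. Their folds lay between 4.40 for HNRNPL and 5.14 for FYTTD1. The lowest q among the 10 in the authors' deposited table was 0.144, for CAPZA2.

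In CaCo-2, PPIA was followed by SLC35F5, a membrane transporter, with 8.74 FPKM in the RIP and 1.45 in input. SNF8, of the endosomal ESCRT machinery, had 6.80 FPKM in the RIP and 1.07 in input. HNRNPUL1, a nuclear RNA-binding protein, had 6.21 and 1.31 FPKM, and ACADVL, an enzyme of fatty acid oxidation, 5.51 and 1.17. RPS3, PKM, M6PR (a receptor that sorts lysosomal enzymes), TALDO1 (of the pentose phosphate pathway) and CCT2 (a chaperonin subunit) completed the first 10, with folds down to 2.92. The lowest q among them in the authors' deposited table was 0.259, for M6PR. No gene stood in the first 10 of both lines, which were drawn from 198 NMD transcripts in HT-29 and 137 in CaCo-2. Few transcripts of any class were listed in both lines. For NMD transcripts the shares were 18.3% of HT-29 and 16.5% of CaCo-2, and for all listed transcripts 19.5% and 16.1%.

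The authors' own Cuffdiff test, which also rested on 1 library per side, called few NMD transcripts. In the authors' deposited table, q was at or below 0.05 for 21 of 699 in HT-29 (3.0%, against 3.08% of all listed transcripts) and for 20 of 774 in CaCo-2 (2.58%, against 2.24%). Protein-coding transcripts were called in 4.53% and 4.50%, and retained-intron transcripts in 0.357% and 0.111%. Among the called transcripts, 18 of the 21 and 18 of the 20 were at 0 in input. Input was above 0 for 3 of the 21 in HT-29, against 108 of the 304 called over all classes. In CaCo-2, among those past the filter, it was above 0 for 2 of 18, against 71 of 249. The called transcripts had a median of 2.31 FPKM in the RIP in HT-29 and 1.77 in CaCo-2, beside 2.27 and 1.43 for all listed NMD transcripts. They spanned a median of 32803 and 35592 nt of the genome, against 16974 and 17291 nt for the NMD transcripts that were not called.

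In HT-29 the lowest q in the authors' deposited table belonged to FAM131B (2.02 FPKM in the RIP, 0 in input, q = 1.09e-04). It was followed by RIPK2, a kinase of NOD receptor signalling, at 3.12 FPKM in the RIP and 0 in input (q = 0.00237). PEX19, a chaperone of peroxisome membrane proteins, had 4.04 FPKM in the RIP, and ARNT, the dimer partner of the aryl hydrocarbon receptor, 1.99, both with input at 0 (q = 0.00267 each). CCAR1, a transcriptional co-activator, had 3.81 FPKM in the RIP and NARF, a protein that binds prelamin A, 3.10, again with input at 0. NKTR, EDRF1, WASH4P and TRIM68, between 1.53 and 1.75 FPKM in the RIP, were also at 0 in input. The 3 called transcripts with input above 0, named after their values were seen, were those of PSME4, FNDC3A and FLNA. PSME4, a proteasome activator, had 4.54 FPKM in the RIP and 0.823 in input (q = 0.0125 in the authors' deposited table). FNDC3A had 3.79 FPKM in the RIP and 0.719 in input, and the actin crosslinker FLNA had 11.2 and 3.65 FPKM (q = 0.0317).

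In CaCo-2 the lowest q in the authors' deposited table was that of AHR, the aryl hydrocarbon receptor (2.43 FPKM in the RIP, 0 in input, q = 2.68e-04). USH1C, a scaffold protein of brush-border microvilli, had 5.10 FPKM in the RIP and 0 in input (q = 4.70e-04). BRPF3, a scaffold of histone acetyltransferases, DPAGT1, the first enzyme of N-glycan assembly, and SNW1, a splicing factor and co-activator, had 1.58, 3.57 and 2.43 FPKM in the RIP, all with input at 0. CNEP1R1, of a nuclear envelope phosphatase, CYFIP2, of the actin-regulating WAVE complex, PIK3CB, a catalytic subunit of phosphoinositide kinase, and the nucleoporin gene NUPL2 lay between 1.05 and 2.24 FPKM in the RIP and at 0 in input. With input above 0 there were TMEM66 (q = 0.0164 in the authors' deposited table) and TEP1, of the telomerase and vault complexes, with 1.87 FPKM in the RIP and 0.521 in input. TEP1 was named after its values were seen.

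Few of the called transcripts were listed in both lines. The number of NMD transcripts called in both of the authors' deposited tables at q of 0.05 was 0. Over all classes it was 19, of 304 called in HT-29 and 268 called in CaCo-2. The 21 and 20 called NMD transcripts are too few to set 0 apart from that share. Of the 21 called in HT-29, 1 was listed at all in CaCo-2 (4.76%, against 67 of all 304 called, 22.0%): PSME4, with 2.71 FPKM in the RIP and 1.38 in input (q = 0.447). Of the 20 called in CaCo-2, 1 was listed in HT-29, against 66 of all 268 called (24.6%): PIK3CB, with 2.26 FPKM in the RIP and 0.908 in input (q = 0.375). EDRF1, a regulator of erythroid genes, was the 1 gene called in each line, through different transcripts. ENST00000368815 had 1.57 FPKM in the RIP and 0 in input of HT-29, and ENST00000419769 had 0.915 FPKM in the RIP and 0 in input of CaCo-2.

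NMD transcripts listed in both lines numbered 128, which is 18.3% of those of HT-29 and 16.5% of those of CaCo-2. For protein-coding transcripts the shares were 19.3% and 18.4%, and for all listed transcripts 19.5% and 16.1%. By gene name, 197 of the 1166 were in both. Of the 115 that passed the filter in both lines, 27 were at 2-fold in both (23.5%), against 30.0% of all listed transcripts that passed in both. Input was at 0 in both lines for 10 of the 27, in at least 1 line for 19, and above 0 in both for 8. The RIP level was higher in HT-29 for 96 of the 128. The listed RIP levels of all classes begin at 1.31 FPKM in HT-29 and at 0.842 FPKM in CaCo-2. What this difference adds to the count was not tested. Across the 128 transcripts, the RIP levels of the lines had a Pearson correlation of 0.66 on the log2 scale (Spearman 0.52), while the log2 ratios had 0.14 (Spearman 0.09). With input above 0 in both lines (68 transcripts) the ratios correlated at 0.29. These are descriptions across transcripts, which share libraries and are not replicates.

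Ordered by the lower log2 ratio of the lines, NDUFA13 came first, whose promoter is given above. Its transcript ENST00000606722 (hg19 chr19:19627070-19639004, plus strand) had 7.51 FPKM in the RIP and 0 in input of HT-29, and 4.06 and 0.00181 FPKM in CaCo-2. TMCO1 had 5.58 FPKM in the RIP and 0.386 in input of HT-29, and 4.71 and 0.486 in CaCo-2. NDUFS7 had RIP and input levels of 2.77 and 0.00406 FPKM for HT-29, and 3.43 and 0 for CaCo-2. In all 3 the RIP exceeded input in each line by more than the 2-fold mark, which is how they were chosen. Their input was below 0.5 FPKM. None of the 3 had q at or below 0.05 in the authors' deposited tables in either line. TMCO1 had q of 0.978 in HT-29 and 0.948 in CaCo-2. NDUFA13 had 0.421 in HT-29, and NDUFS7 had 0.0812 in CaCo-2.

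Next came AGO2, POLDIP3, SLC5A6, PAK1, RNPS1 and TIAL1. AGO2, the effector of microRNA silencing, had 4.63 FPKM in the RIP and 0 in input of HT-29, and 3.33 and 0.248 in CaCo-2. POLDIP3, an mRNA-bound factor that links splicing to translation, had 2.48 FPKM in the RIP of HT-29 and 2.42 in that of CaCo-2, with both inputs at 0. RNPS1, a component of the exon junction complex that promotes NMD, had 2.30 and 2.07 FPKM in the RIP of HT-29 and CaCo-2, again with both inputs at 0. TIAL1, a regulator of splicing and translation, had 3.09 FPKM in the RIP and 0.0177 in input of HT-29, and 2.08 and 0.0113 in CaCo-2.

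Of the remaining genes, FBXW11 acts on beta-catenin itself: it encodes a beta-TrCP ubiquitin ligase subunit that recognises phosphorylated beta-catenin. Its transcript had 2.11 FPKM in the RIP of HT-29 and 1.61 in that of CaCo-2, with input at 0 in both. PPP2R5D, a regulatory subunit of the phosphatase PP2A, was above 0 in all 4 libraries, with 5.35 FPKM in the RIP and 0.810 in input of HT-29, and 3.48 and 0.738 in CaCo-2. Its q in the authors' deposited tables was 0.0530 in HT-29 and 0.0585 in CaCo-2. All of the 15 had q above 0.05 in both lines. M6PR had the highest input of the 15, in CaCo-2, at 10.1 FPKM in the RIP and 3.34 in input, and had 3.51 and 0.676 FPKM in HT-29. SLC5A6 (a vitamin transporter), PAK1 (a kinase of cytoskeletal signalling), NME1 (a nucleoside diphosphate kinase), RPN2 (of N-glycosylation) and TIMM44 (of mitochondrial import) completed the 15. Their RIP levels lay between 1.45 and 6.03 FPKM in HT-29 and between 1.77 and 3.48 in CaCo-2.

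**Figure D4:**
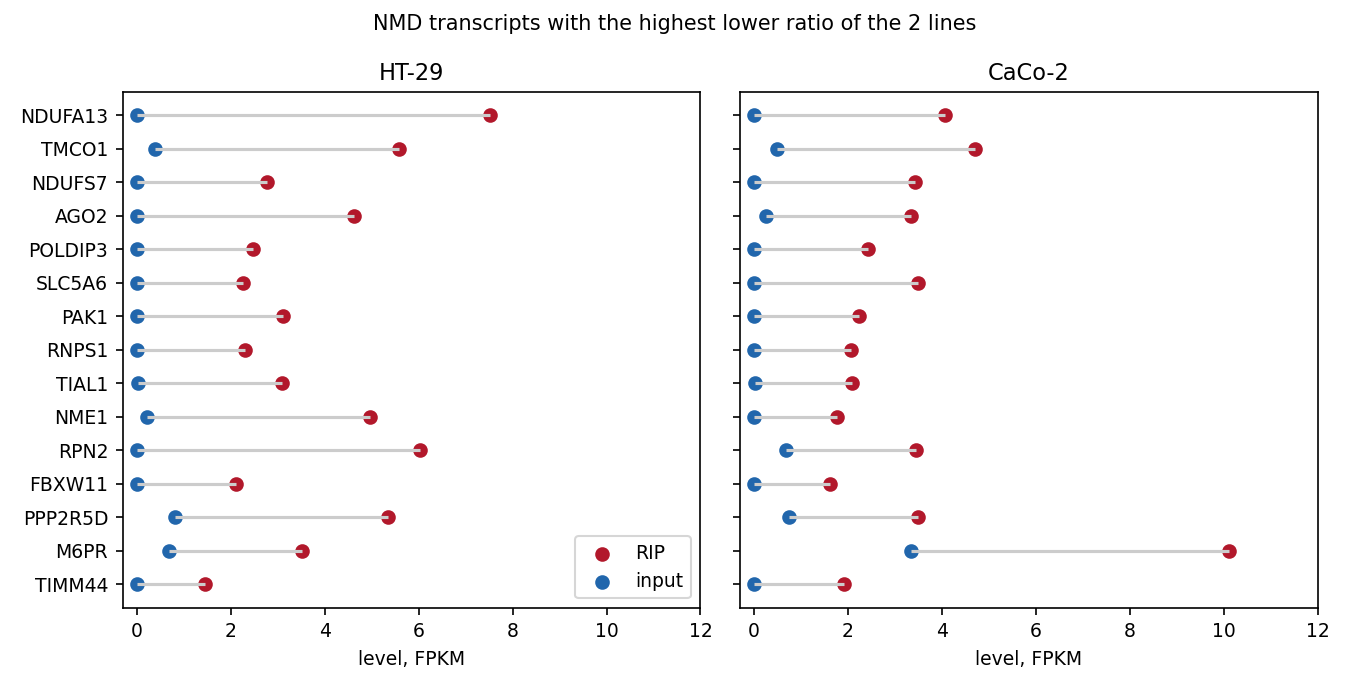
RIP level (red) and input level (blue), in FPKM, of the 15 NMD transcripts listed in both lines with the highest lower log2 ratio, in HT-29 (left) and CaCo-2 (right). All 15 RIP points lie right of their input points, and inputs are at or near 0 except for genes such as TMCO1, PPP2R5D and M6PR.

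Over all listed transcripts the NMD share was 7.07% in HT-29 and 6.48% in CaCo-2. Of 19 NMD factor genes, NCBP2, of the nuclear cap-binding complex, had an NMD transcript, in HT-29, with 1.56 FPKM in the RIP and 0.738 in input. It was 1 of the list's 14 transcripts of any class in HT-29, and CaCo-2 had 0 of 15. Of 15 exon junction complex genes, RNPS1 had one in each line, where the list had 13 (HT-29) and 14 (CaCo-2) transcripts of any class. Among 22 genes known as NMD targets, TBL2 had NMD transcripts in both lines (1.92 FPKM in the RIP and 1.19 in input of HT-29; another transcript with 0.963 and 0 in CaCo-2). GADD45B, a stress-induced gene, had 1.02 FPKM in the RIP and 0 in input of CaCo-2. The known targets thus had 1 NMD transcript among 28 of any class in HT-29. In CaCo-2 they had 2 among 30, of which 1 passed the filter. TBL2 encodes a protein of the endoplasmic reticulum.

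Of 20 genes of SR proteins and their kinases, TRA2B had an NMD transcript in HT-29, with 4.08 FPKM in the RIP and 2.55 in input, which was 1 of 27 listed transcripts of any class. CaCo-2 listed 5 among 32, of CLK1, SRSF1, CLK4, CLK3 and SRSF7. CLK1, a kinase that phosphorylates SR proteins, had 2.14 FPKM in the RIP and 1.32 in input, and SRSF1, a founding SR protein, 1.28 and 0.777. None of these SR and kinase transcripts was at 2-fold, 1 having passed the filter in HT-29 and 3 in CaCo-2. Over all classes, these NMD transcripts included, 14 of 27 transcripts of these genes were at 2-fold in HT-29. In CaCo-2, 13 of the 28 past the filter were.

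The 70 genes of hnRNPs and other splicing regulators had 8 NMD transcripts in HT-29, 5 of them at 2-fold, with a median log2 ratio of 1.07. CaCo-2 had 16, of which 13 passed the filter and 6 were at 2-fold, with a median of 0.94. Over all classes, 80 of 130 transcripts of these genes (HT-29) and 57 of 125 (CaCo-2) were at 2-fold, beside 56.0% and 40.8% of all listed. DDX5, an RNA helicase, had 14.9 FPKM in the RIP and 6.06 in input of HT-29, and the same transcript had 2.68 and 0.512 in CaCo-2. HNRNPUL1 ENST00000595196 differed between the lines: 6.21 FPKM in the RIP and 1.31 in input of CaCo-2, but 6.89 and 3.25 in HT-29. RBM39 had 6.95 FPKM in the RIP and 3.08 in input of HT-29, below 2-fold on the log2 scale as in CaCo-2. HNRNPL had 7.40 FPKM in the RIP and 1.68 in input, and DDX39B, an mRNA export helicase, 7.79 and 2.99, both in HT-29.

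Translation factors, 44 genes, had 10 NMD transcripts in HT-29 with 7 at 2-fold, and 9 in CaCo-2, of which 8 passed the filter and 3 were at 2-fold. Their transcripts of any class were at 2-fold for 71 of 108 (HT-29) and 32 of 78 (CaCo-2), beside 56.0% and 40.8% of all listed. EEF1D, of the elongation factor complex, had 14.7 FPKM in the RIP and 5.37 in input of HT-29, and EIF2A, an initiation factor, 5.71 and 0. PABPC1, the cytoplasmic poly(A)-binding protein, had 4.87 FPKM in the RIP and 2.87 in input of CaCo-2. The median log2 ratios of the list's NMD transcripts were 1.29 in HT-29 and 0.93 in CaCo-2, near those of the whole class.

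The proteasome list had more NMD transcripts in HT-29 than in CaCo-2. Of its 43 genes, 10 had NMD transcripts in HT-29, and all 12 of these transcripts were at 2-fold (60.2% of the class), 6 of them with input at 0. PSMD13, of the regulatory lid, had 11.4 FPKM in the RIP and 3.97 in input. The ATPase subunits PSMC3 and PSMC5 had RIP levels of 6.39 and 6.19 FPKM and input levels of 2.63 and 2.39 FPKM. The assembly chaperone PSMG2 had 5.53 FPKM in the RIP and 1.58 in input, and the catalytic subunit PSMB6 5.28 and 2.04. In CaCo-2, 4 transcripts of 3 genes were listed, 3 passed the filter, and 1 was at 2-fold, of PSMD9, a chaperone of assembly. That transcript had 2.68 FPKM in the RIP and 0.833 in input of CaCo-2, beside 3.27 and 0.718 in HT-29. Proteasome transcripts of any class were at 2-fold for 35 of 55 (HT-29) and 17 of 39 (CaCo-2). The list does not hold PSME4, whose NMD transcript, given above, was at 2-fold in HT-29 and not in CaCo-2. The difference between the lines was not tested.

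A list of 57 genes of the respiratory chain and ATP synthase had 1 NMD transcript in HT-29, of NDUFS7. In CaCo-2 it had 5, all at 2-fold and 4 with input at 0, where 40.8% of all listed transcripts and 29 of the list's 56 of any class were at 2-fold. They were those of NDUFS7, ATP5A1, NDUFS8, UQCRB and ATP5O. Other than NDUFS7 they reached at most 1.58 FPKM in the RIP, next to the filter. The list does not hold every gene of complex I. Outside it, and named after their values were seen, NDUFA7 had NMD transcripts in HT-29 with 6.50 FPKM in the RIP and 0.00292 in input and with 2.64 and 0. NDUFA11 had one in HT-29, NDUFB7 one in CaCo-2, and NDUFA13 one in both lines.

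Among 59 Wnt pathway components, 5 had an NMD transcript in HT-29 and 4 in CaCo-2. The casein kinase genes CSNK1E and CSNK1D, which phosphorylate Dishevelled and other Wnt components, had RIP levels of 2.48 and 1.87 FPKM and input levels of 0.381 and 0.302 FPKM in HT-29. Other transcripts of both genes were listed in CaCo-2, at 1.43 FPKM in the RIP and 0.934 in input for CSNK1E and at 0.993 and 0 for CSNK1D. SENP2, a SUMO protease, had 2.27 FPKM in the RIP and 0 in input of HT-29, and the receptor FZD6 1.77 and 0.694. TLE3, a co-repressor that beta-catenin displaces from TCF, had 3.58 FPKM in the RIP and 1.64 in input of CaCo-2. In all, 4 of 5 were at 2-fold in HT-29, 2 of them with input at 0. In CaCo-2, 1 of the 3 past the filter was, FBXW11, with input at 0. The list's transcripts of any class were at 2-fold for 38 of 58 (HT-29) and 29 of 67 (CaCo-2). No NMD transcript of CTNNB1, the gene of beta-catenin, was listed. Of 30 Wnt target genes, none had an NMD transcript in HT-29 and BIRC5, an inhibitor of apoptosis, had one in CaCo-2, with 0.847 FPKM in the RIP and 0 in input.

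At the cell junction, beta-catenin joins cadherin to alpha-catenin. CTNNA1, the gene of alpha-catenin, had 3 NMD transcripts over the lines. In HT-29, ENST00000521724 had 13.5 FPKM in the RIP and 4.13 in input, and ENST00000521368 had 4.25 and 0. In CaCo-2, ENST00000519309 had 1.19 FPKM in the RIP and 0 in input. CDH1, E-cadherin, had an NMD transcript in CaCo-2 with 3.17 FPKM in the RIP and 0 in input, while its listed protein-coding transcript had 4.33 and 2.78. All 4 were at 2-fold, 3 of them by construction because input was at 0. The other genes of this list of 33 had no listed NMD transcript. The list's transcripts of any class numbered 32 in HT-29, 18 of them at 2-fold. In CaCo-2 they numbered 38, of which 34 passed the filter and 14 were at 2-fold. Of all listed transcripts, 56.0% (HT-29) and 40.8% (CaCo-2) were at 2-fold. The lowest q among the 4 NMD transcripts in the authors' deposited tables was 0.434.

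An NMD transcript shares its gene with transcripts of other classes, which were set beside it. Of the 699 in HT-29, the gene of 414 listed another class and that of 291 a protein-coding transcript; in CaCo-2 it was 509 and 327 of 774. For 285 transcripts in HT-29 (40.8%) and 265 in CaCo-2 (34.2%), no other class of the gene was listed. Of the 254 NMD transcripts with input at 0 in HT-29, 121 had a listed transcript of another class of the gene with input above 0, and 60 had one with at least 1 FPKM. In CaCo-2 these were 150 and 63 of 274. For those genes, the input library had a level above 0 for another transcript of the gene.

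The highest NMD transcript was then paired with the highest listed protein-coding one, in 267 genes of HT-29 and 297 of CaCo-2. The NMD transcript had the higher RIP level in 115 and 120 of them. The median ratio of NMD to protein-coding RIP level was 0.921 in HT-29 and 0.846 in CaCo-2. The log2 ratio of RIP to input was higher for the NMD transcript in 128 of 267 pairs and in 127 of 297, with a median difference (NMD minus protein-coding) of -0.01 and -0.09. In these pairs, then, the NMD transcript did not have the higher ratio more often than its partner. The pairs cover only genes with a listed protein-coding transcript, and both members were picked by their RIP level. Whether the class difference holds within genes in general was not tested. Among the HT-29 pairs, input was 0 for 99 NMD and 83 protein-coding transcripts. The CaCo-2 pairs had 109 and 91 such transcripts. The widest pairs were uneven: PFDN4 in HT-29 had 42.1 FPKM for the NMD and 1.91 for the protein-coding transcript in the RIP, a ratio of 22.0. CTNNA1 had 13.5 against 1.42. At the other end, named after their values were seen, LGALS3BP, a secreted glycoprotein, had 1.73 against 88.6 in HT-29, and RPL31 2.04 against 71.3 in CaCo-2.

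By their annotated starts, listed NMD transcripts began near a protein-coding start more often than retained-intron transcripts did. These starts come from the annotation and were not measured in the libraries. Retained-intron transcripts also span less of the genome, as given above. Where the gene listed a protein-coding transcript, the hg19 start of the NMD transcript lay within 100 nt of a protein-coding one for 43.6% (127 of 291) in HT-29, while CaCo-2 had 44.3% (145 of 327). For retained-intron transcripts the shares were 23.5% and 19.9%. The median distance was 188 and 227 nt for NMD transcripts, against 2747 and 5355 nt for retained-intron transcripts.

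By chromosome, the NMD share of listed transcripts was lowest on the X chromosome, with 5 of 234 for HT-29 (2.14%) and 4 of 248 for CaCo-2 (1.61%). Chromosome 1 followed in both lines, with 26 of 894 (2.91%) and 28 of 928 (3.02%). It held 3.72% of NMD transcripts and 9.45% of the other listed transcripts in HT-29, while CaCo-2 had 3.62% and 8.06%. The highest share was on chromosome 18 in HT-29 (18 of 135, 13.3%) and on chromosome 3 in CaCo-2 (72 of 697, 10.3%). Chromosome 18 held 8 of 168 in CaCo-2 (4.76%), and chromosome 3 47 of 563 in HT-29 (8.35%). Over the 23 chromosomes the shares of the lines had a Pearson correlation of 0.51 and a Spearman correlation of 0.56. Both tables rest on the same annotation; the number of NMD transcripts it holds per chromosome was not analysed here.

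**Figure D5:**
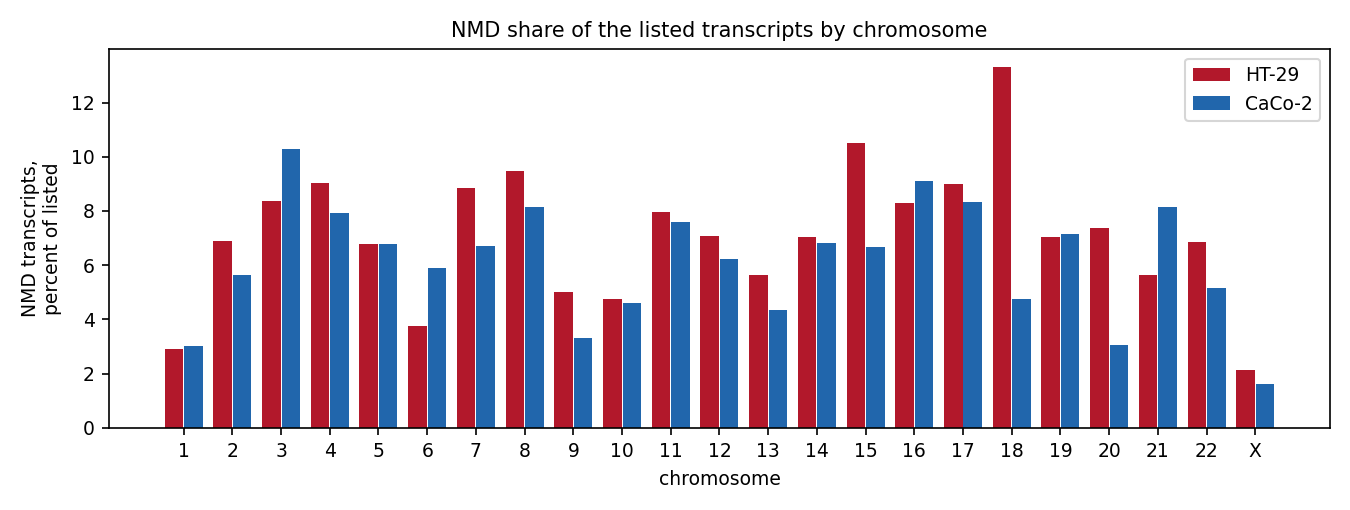
NMD transcripts as percent of all listed transcripts of each chromosome in HT-29 (red) and CaCo-2 (blue). The X chromosome (2.14% and 1.61%) and chromosome 1 (2.91% and 3.02%) are low in both lines, and chromosome 18 is high in HT-29 (13.3%) but not in CaCo-2 (4.76%).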

How the data were processed

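RNA of nuclear lysates was sequenced from a beta-catenin RIP and an input library of each of 2 lines (4 libraries). Per the submitters' processing notes, CASAVA 1.4, Bowtie2, TopHat2 2.0.8, Cufflinks, Cuffdiff and hg19 were used. Strandedness and other versions were not stated in the labels, so reads of overlapping or antisense genes may not be told apart. The authors deposited FPKM per Ensembl transcript for each library, normalised for transcript length and library size; depth is unknown from the tables. The q-value and p-value of each transcript were deposited by the authors from Cuffdiff. The deposited log2 fold served only to check the selection of rows. Per-sample columns left unmapped numbered 0. The starts in the tables count from 0 and were written from 1.

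From the FPKM, log2 of (RIP + 1) over (input + 1) was computed with Python 3.11.15 and pandas 2.3.3, with a pseudocount of 1 FPKM, a filter of at least 1 FPKM in at least 1 library and a threshold of 2-fold. The computation was tested on simulated data. No fold is given where input is below 0.01 FPKM. The members and the 12 gene lists were chosen with earlier results of these data known. Transcripts were named per line as the 10 highest in the RIP, the 10 highest ratios where both libraries reached 1 FPKM and up to 10 of lowest q; up to 5 per gene list; over both lines the 15 with the highest lower ratio; and the 5 genes with most NMD transcripts. Others are said to be named after their values were seen. Gene names matched a current RefSeq symbol for 609 of 651 (HT-29) and for 675 of 712 (CaCo-2); 2 date-like names of CaCo-2 were not named. Alternatives were other pseudocounts, filters and thresholds and 1 transcript per gene.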

Additional observations from a re-analysis of the deposited data

How the results depend on the processing

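No paired analysis was possible because each group had 1 library and the labels give no replicate numbers. Of 53 alternative values, 25 stayed within 1.5 times the count or within the 95% interval of the median or share, which is taken over transcripts and is no replicate error, 27 moved and 1 reversed. Where both libraries reached 1 FPKM, 50 NMD transcripts were at 2-fold in HT-29, 22 in CaCo-2 and 0 in both lines; with inputs at 0 left out there were 167, 95 and 8, and at 3-fold 169, 71 and 9. By pseudocount, the count in both lines was 60 at 0.1 FPKM and 41 at 0.5 FPKM. The median log2 ratio in HT-29 was 2.18 and 1.62 at these pseudocounts, 0.74 where both libraries reached 1 FPKM and 0.84 without inputs at 0. In CaCo-2 it was 1.61, 1.22, 0.60 and 0.64. In the authors' deposited tables, q was at most 0.1 for 34 NMD transcripts of HT-29 and for 34 of CaCo-2, and p at most 0.05 for 140 and 144. The share at 2-fold of NMD minus protein-coding transcripts, a comparison chosen after seeing the data, in HT-29 was 2.52 points where both libraries reached 1 FPKM, 2.05 without inputs at 0 and 2.23 at 3-fold. In CaCo-2, against 5.29 points, it was 2.58 at a pseudocount of 0.1 FPKM, 2.08 with no filter, 1.86 where both libraries reached 1 FPKM and 0.90 at 3-fold, and it reversed to -0.87 without inputs at 0. Leaving out inputs at 0 removes transcripts that pass 2-fold by construction. It also changes which transcripts are compared, and what makes the difference smaller was not tested. Without replicates or depth, no value here has an error between libraries, and the lists of transcripts begin at a fold of 1.5, so nothing below it was analysed here.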

Other observations

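Most genes contributed 1 NMD transcript to a line, 604 of 651 names for HT-29 and 656 of 712 for CaCo-2. The 5 genes with most over both lines were DMKN, RPS3, TARS, DDX5 and CTNNA1. DMKN, which encodes dermokine, a secreted epithelial protein, had 5, of which 4 were listed in CaCo-2 and another 1 in HT-29. The highest in CaCo-2, ENST00000480507, had 8.16 FPKM in the RIP and 0 in input, and ENST00000462721 had 3.28 and 1.06. ENST00000460327 had 1.46 FPKM in the RIP and 0.607 in input, and ENST00000476246 had 1.24 and 0. The DMKN transcript of HT-29, ENST00000463292, had 1.43 FPKM in the RIP and 0 in input.

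TARS, which encodes the threonyl-tRNA synthetase of the cytoplasm, listed 3 NMD transcripts in HT-29. ENST00000505012 was common to both lines, with 21.3 FPKM in the RIP and 12.9 in input of HT-29, and 10.9 and 4.87 in CaCo-2. ENST00000508361 had 5.99 FPKM in the RIP and 5.62e-04 in input of HT-29, and ENST00000509731 had 2.65 and 0. The high transcript of the gene thus had the lowest log2 ratio of the 3 in HT-29, 0.68, against 2.81 and 1.87. DDX5 listed 2 in each line. In HT-29, ENST00000581693 had 14.9 FPKM in the RIP and a log2 ratio of 1.18, and ENST00000540698 10.9 FPKM and 0.71. In CaCo-2, ENST00000581693 had 2.68 FPKM and 1.28, and ENST00000578400, with input at 0, 1.80 FPKM and 1.49.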
